A study of Mus musculus with 6 samples.

Results

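Extracellular growth factors and morphogens, together with their receptors, were followed in the liver of diabetic mice. The set took in every measured gene whose symbol starts with Fgf, Vegf, Pdgf, Tgfb, Bmp or Wnt, other than Fgf21. It also took in the hedgehog ligands Shh, Ihh and Dhh, their receptors Ptch1 and Smo, and Hgf, Met, Hbegf and Egfr. That gave 83 of the 909 named genes on the array, each read from 1 probe set, the one with the highest average signal. Egf, Kdr and Flt1 were also sought and were not analysed here. RNA from livers of male mice was hybridised to 6 Affymetrix arrays, 3 of wildtype, healthy mice and 3 of mice labelled diabetic, which the study's title describes as insulin-deficient. The labels used here name neither the strain, the age nor the way in which diabetes was produced, nor do they state that the arrays hold different mice, so the p-values measure only the spread between these 6 samples, which may be technical in part.

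Many of these proteins bind heparan sulfate, the sulfated sugar chain of cell surface and matrix proteoglycans, which holds secreted ligands near the cell and, for fibroblast growth factors (FGFs), takes part in the complex with the receptor. Ligands of the FGF, vascular endothelial (VEGF), platelet-derived (PDGF), hepatocyte (HGF) and epidermal (EGF) growth factor families act through receptor tyrosine kinases. Transforming growth factor beta (TGF-beta) and bone morphogenetic protein (BMP) ligands act through serine/threonine kinase receptors, Wnts through Frizzled receptors, and hedgehog proteins by releasing Smo from Ptch1. In liver these pathways are known for regeneration, fibrosis, bile acid control, iron control and the division of the lobule into zones. The set follows gene symbols, so it also holds proteins that are not secreted heparin binders, such as the intracellular relatives Fgf11 to Fgf14, the protease Bmp1 and the receptors. RNA values cannot test heparin binding.

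None of the 83 genes differed between diabetic and wildtype liver past an adjusted p of 0.05 (limma over all 1246 probe sets, Benjamini-Hochberg), where 0.321% of all probe sets did. At an unadjusted p under 0.05 limma gave 2 of the 83, or 2.41%, against 2.97% of all probe sets. These were Shh, which was lower in diabetic liver like 1.12% of all probe sets, and Fgfr2, which was higher like 1.85%. The mean was higher in diabetic liver for 50 genes, or 60.2%, against 50.6% of all probe sets, and the median difference was 0.03 on the log2 scale, against 0.00 over all probe sets. Without diabetic 3 the mean was higher for 41 of the 83, against 48.6% of all probe sets. Without any 1 of the other arrays it was higher for 48 to 53, against 48.7% to 55.4% of all probe sets. A difference under 0.2 in size was found for 71 of the 83, and for 1025 of all 1246 probe sets.

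**Figure D1:**
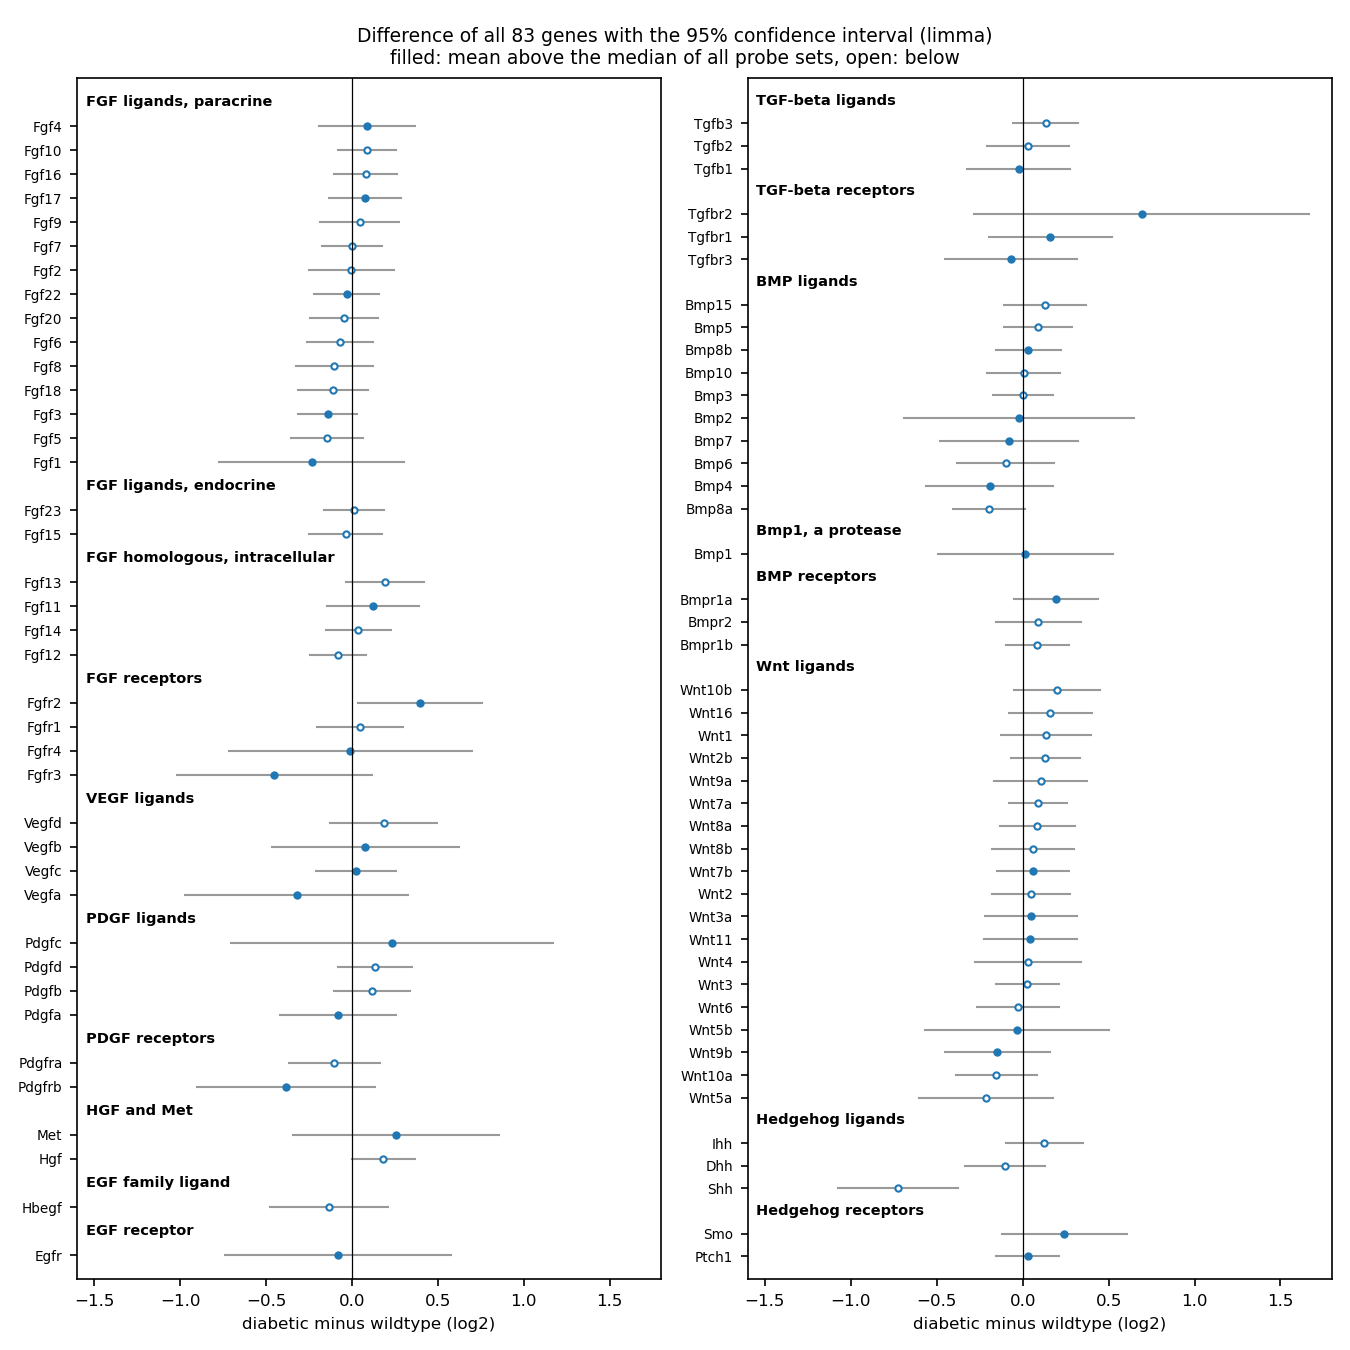
Difference between diabetic and wildtype liver (log2, x axis) for each of the 83 genes, grouped by family, with limma's 95% confidence interval as a line. The 34 filled points have a mean above the median of all probe sets, and Shh and Fgfr2 are the genes whose intervals leave out 0.

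The precision differed between bright and dim probe sets. The mean lay below the median of all probe set means, 5.0, for 49 of the 83 genes. For these the median standard error (SE) of a difference was 0.09, against 0.15 for the 34 brighter ones. The 95% confidence interval lay between -0.5 and 0.5 for 47 of the 49 dim genes and for 17 of the 34 bright ones. No detection calls were used, so a dim value was not separated from background, and a narrow interval there does not show an unchanged transcript. Over all 83 genes, 79 intervals lay between -1 and 1, as did 1161 of those of all 1246 probe sets.

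Whole-series facts that touch these values were few. All 7 measured hepatocyte markers, among them the asialoglycoprotein receptor gene Asgr1, lay above the median of all probe sets, with list means of 11.04 to 11.31 on the wildtype and 11.17 to 11.28 on the diabetic arrays. Of single markers, Mbl2, a lectin of innate immunity, was 2.04-fold higher (limma adjusted p = 0.0412, and 0.142 with the replicate block). Igfals, which carries growth factor Igf1 in blood, had a difference of -0.61 that was not called (limma adjusted p = 0.928). Wildtype 2 stood over 0.5 above or below every other array at 40 probe sets, of which 0 belonged to the 83 genes, and diabetic 3 at 21. Among the 83 genes, diabetic 3 held the highest value in 32.5%, against 20.3% of all probe sets, and wildtype 1 the lowest in 27.7%, against 15.9%. Of 6 macrophage markers, 4 were highest on diabetic 3, while Cd74 was highest on wildtype 3 and Clec4f on diabetic 2. Csf1r, the macrophage growth factor receptor, read 6.44, 6.31 and 6.85 in wildtype and 6.23, 6.28 and 7.50 in diabetic liver. The mean of the 6 macrophage markers ran from 5.74 to 6.17 on the wildtype and from 5.59 to 6.36 on the diabetic arrays. Adgre1 and Siglec1, with means of 4.14 and 4.74, lay below the median of all probe sets and were not separated from background. The part of the macrophage markers in the results was not tested.

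FGF receptors are the tyrosine kinases through which FGFs signal, and Fgfr4 is the one known best in hepatocytes. Fgfr2 read 7.48, 7.72 and 7.48 on wildtype arrays 1 to 3 and 7.75, 7.86 and 8.25 on diabetic arrays 1 to 3. Its probe set carries a suffix of possible cross-hybridisation. The groups did not overlap, although the lowest diabetic array stood 0.03 above the highest wildtype array. Its mean of 7.56 ± 0.14 in wildtype and 7.96 ± 0.26 in diabetic liver (log2, SD, n = 3) made it 1.32-fold higher, a difference of 0.40 (SE 0.15, limma unadjusted p = 0.0366, adjusted p = 0.928). It was 0.25 without diabetic 3. The fit blocked on replicate number gave Fgfr2 an unadjusted p of 0.0528 (limma).

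Fgfr3 had the opposite sign, with 8.54, 8.50 and 7.81 in wildtype and 7.51, 8.05 and 7.93 in diabetic liver. Wildtype 3 lay among the diabetic arrays. The difference of -0.45 had a 95% confidence interval of -1.02 to 0.12 (limma adjusted p = 0.928), and it ran from -0.69 without wildtype 3 to -0.29 without diabetic 1. Fgfr4 read 8.12, 8.46 and 7.25 in wildtype and 8.01, 7.87 and 7.92 in diabetic liver. Here wildtype 3 stood below all other arrays, and the diabetic arrays were close together. The Fgfr4 difference was -0.01, with -0.35 without wildtype 3 and 0.25 without wildtype 2. Fgfr1 gave 4.91, 4.95 and 5.06 against 4.85, 5.05 and 5.17, a difference of 0.05.

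The start-site regions of Fgfr2 and Fgfr3 are shown because these sister receptors had the largest differences of the FGF receptors, with opposite sign. The arrays measure transcripts and do not read these regions. Each sequence runs 5′ to 3′ on the gene's strand, over 300 bases around a start site in RefSeq (GRCm38.p6), and capitals mark the GC box GGGCGG or its complement CCGCCC, the letters bound by Sp1-type factors. Fgfr2 lies at chr7:130266759-130267058 on the minus strand, and Fgfr3 has starts at chr5:33721474-33721773 and chr5:33722056-33722355 on the plus strand.
Fgfr2: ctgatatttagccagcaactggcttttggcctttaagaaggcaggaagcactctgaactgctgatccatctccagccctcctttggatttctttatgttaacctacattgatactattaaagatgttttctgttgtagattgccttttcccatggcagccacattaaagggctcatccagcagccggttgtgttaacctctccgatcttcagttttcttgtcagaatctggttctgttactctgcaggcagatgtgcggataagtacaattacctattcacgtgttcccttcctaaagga
Fgfr3 upstream start: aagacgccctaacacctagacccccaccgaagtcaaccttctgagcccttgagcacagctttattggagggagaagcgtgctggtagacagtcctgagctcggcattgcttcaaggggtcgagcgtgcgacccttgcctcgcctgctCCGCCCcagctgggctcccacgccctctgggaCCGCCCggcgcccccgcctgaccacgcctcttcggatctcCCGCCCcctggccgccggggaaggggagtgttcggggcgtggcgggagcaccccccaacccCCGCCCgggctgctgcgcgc
Fgfr3 downstream start: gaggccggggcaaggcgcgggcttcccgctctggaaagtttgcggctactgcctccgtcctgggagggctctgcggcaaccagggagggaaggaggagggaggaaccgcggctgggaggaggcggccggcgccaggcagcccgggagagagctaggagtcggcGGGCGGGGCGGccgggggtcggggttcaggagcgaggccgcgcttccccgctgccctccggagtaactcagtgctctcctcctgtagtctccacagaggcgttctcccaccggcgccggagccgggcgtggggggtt
The Fgfr2 window held 0 GC boxes and 4 CpG dinucleotides, and the Fgfr3 windows held 4 and 2 GC boxes, with 26 and 30 CpG dinucleotides. The downstream pair of boxes overlaps by a base.

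Such windows were given for 62 of the 83 genes, 78 windows in all. The GC box, searched on both strands, was in 62.8% of them, against 46.2% of the windows of all protein-coding genes. TGTTTAC or its complement GTAAACA, letters that FoxO factors bind, was in 2.56% of the windows, those of Fgf10 and Hgf, against 3.00% for all protein-coding genes. TATAAA or its complement TTTATA was in 10.3%, against 12.6%. These are counts of letters and show no site in use.

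Among paracrine FGF ligands, which act near the cell that secretes them and bind heparan sulfate, 6 of 15 had higher and 9 lower means, with a median difference of -0.03 and 0 called (0 at an unadjusted p under 0.05). Fgf1, a ligand known from fat tissue and for lowering blood glucose, read 9.15, 8.97 and 8.57 in wildtype and 8.93, 8.24 and 8.80 in diabetic liver. The groups overlapped, and the difference of -0.23 (SE 0.22) was -0.03 without diabetic 2. Fgf3 gave 5.10, 5.16 and 5.10 against 4.96, 5.02 and 4.96, and it was lower by 0.14, 0.14 and 0.15 within the same-numbered arrays (limma unadjusted p = 0.0864, adjusted p = 0.928). Fgf10, a ligand of Fgfr2 known from lung and limb growth, gave 3.69, 3.77 and 3.76 against 3.82, 3.80 and 3.86. Fgf2, a widely used mitogen, gave 3.13, 3.25 and 3.04 against 2.98, 3.23 and 3.19, a difference of 0.00. Fgf10 did not overlap between the groups and Fgf2 did.

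The endocrine FGFs act at a distance. Fgf15, the gut hormone that represses bile acid synthesis in the liver, read 4.99, 5.04 and 4.98 in wildtype and 4.90, 5.11 and 4.89 in diabetic liver, a difference of -0.04. Fgf23, the bone hormone of phosphate balance, differed by 0.01. The intracellular relatives do not signal through FGF receptors and are known for binding sodium channels. Fgf13 gave 3.22, 3.08 and 3.28 against 3.33, 3.33 and 3.50, and Fgf12 gave 3.19, 3.20 and 3.23 against 3.14, 3.14 and 3.10. Their groups did not overlap, with differences of 0.19 and -0.08 at dim probe sets. Fgf11 differed by 0.12, from 5.83, 5.92 and 5.83 to 6.08, 5.77 and 6.11.

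Hedgehog ligands are secreted morphogens, and Shh had the smallest p of the 83 genes. Shh read 4.72, 5.09 and 5.26 on wildtype arrays 1 to 3 and 4.29, 4.35 and 4.25 on diabetic arrays 1 to 3. The lowest wildtype array stood 0.37 above the highest diabetic array, and the diabetic arrays were close together. The mean was 1.66-fold lower in diabetic liver, 4.30 ± 0.05 against 5.03 ± 0.28 (SD, n = 3), a difference of -0.73 (SE 0.14, 95% confidence interval -1.08 to -0.38, limma unadjusted p = 0.00195, adjusted p = 0.486). Over the alternatives run, with limma or the ordinary linear model, the adjusted p for Shh ran from 0.109, without wildtype 1, to 0.995. The unadjusted p of Shh ran from 0.000176 to 0.0111 over the same fits. Leaving out an array moved the difference between -0.88 and -0.61.

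The other Shh probe set, whose suffix marks possible cross-hybridisation, gave 4.54, 4.80 and 4.83 in wildtype and 4.45, 4.55 and 4.64 in diabetic liver. These groups overlapped, and the difference was -0.18 (limma adjusted p = 0.928). Over all arrays the chosen Shh probe set averaged 4.66, against 4.64 for this one. The chosen one read higher in wildtype, 5.03 against 4.72, and lower in diabetic liver, 4.30 against 4.55. On the diabetic arrays alone, the other probe set would thus have been the one chosen. Both probe sets lay below the median of all probe sets, and the mean of both gave -0.45 with an adjusted p of 0.926. Ihh, known as a bone and gut ligand, read 4.93, 4.82 and 5.01 against 4.92, 5.11 and 5.12, a difference of 0.13. Dhh, a ligand of testis and nerve sheath, read 4.89, 5.0 and 4.76 against 4.82, 4.67 and 4.85, a difference of -0.10, with 0.03 at its dimmer probe set.

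The hedgehog receptors had no called change. Ptch1, which binds the ligands and is itself induced by the pathway, gave 5.54, 5.43 and 5.50 in wildtype and 5.48, 5.58 and 5.50 in diabetic liver, higher by 0.03 with an interval from -0.15 to 0.21. Smo, the transducer, gave 5.53, 6.07 and 5.58 against 5.97, 5.98 and 5.95. Wildtype 2 stood above all diabetic arrays and the other wildtype arrays below them, so that the difference of 0.24 was 0.41 without wildtype 2 and 0.14 without wildtype 1.

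**Figure D2:**
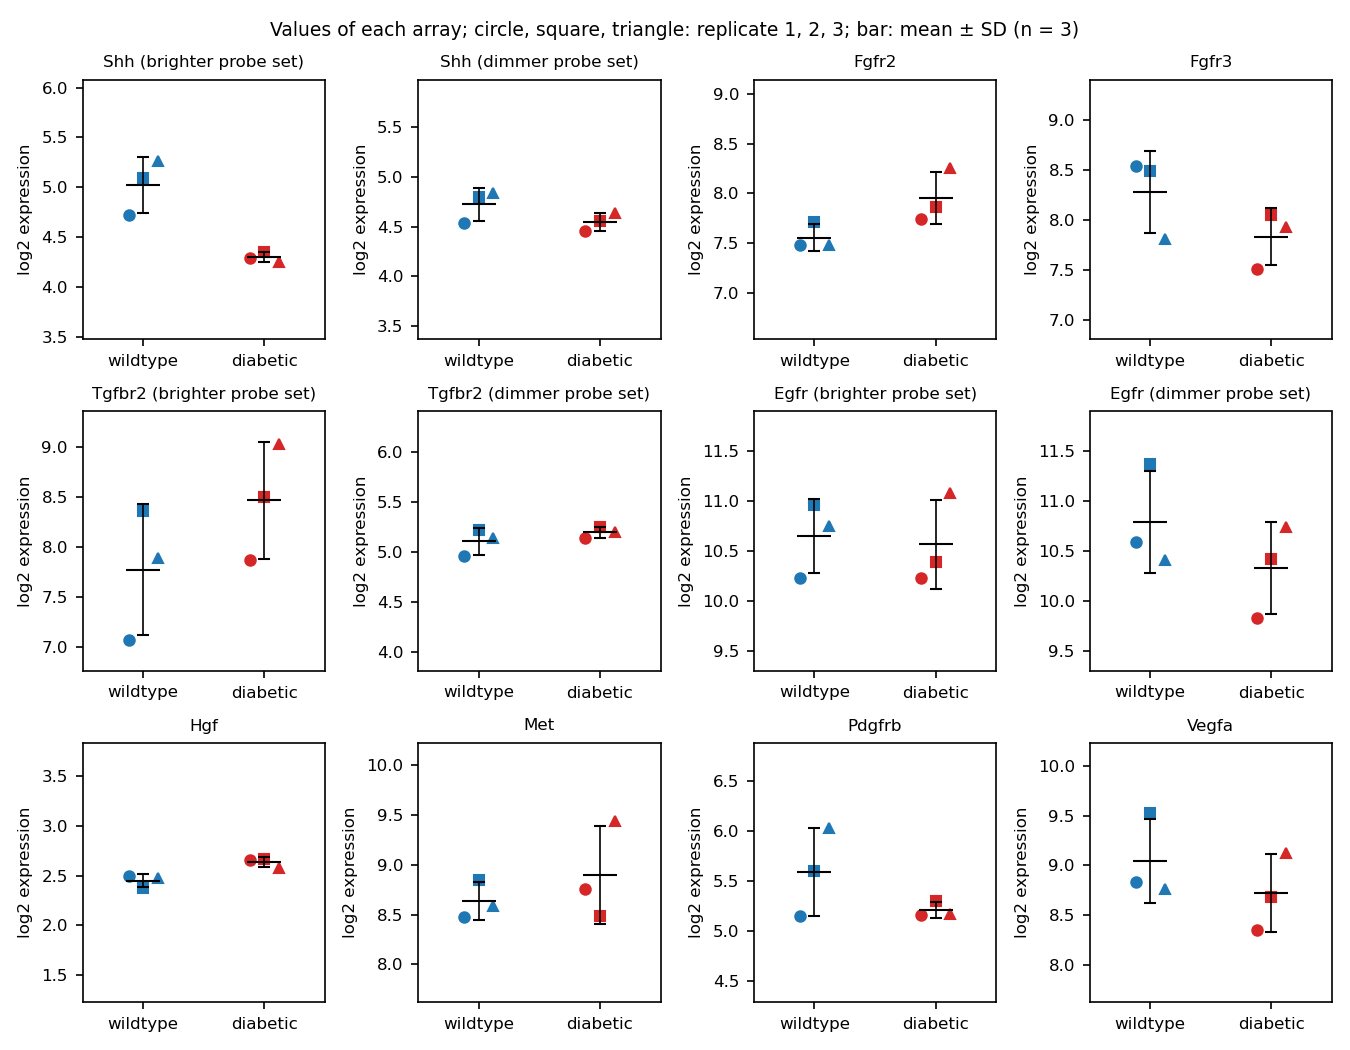
Log2 expression (y axis) on each wildtype and diabetic array for 12 probe sets of 9 genes, with mean ± SD; every panel spans the same log2 range. Brighter and dimmer go by the mean over all arrays, and in diabetic liver the order of the Shh probe sets is reversed. Shh separates the groups at its brighter probe set, at 4.25 to 4.35 against 4.72 to 5.26, and not at its dimmer one. In Met diabetic 3 stands apart at 9.44.

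TGF-beta receptors carried the largest difference in the higher direction. Tgfbr2, the kinase that binds TGF-beta and starts the signal, read 7.07, 8.36 and 7.89 in wildtype and 7.87, 8.50 and 9.03 in diabetic liver. Wildtype 1 was low and diabetic 3 high, and the groups overlapped. The difference was 0.69 (SE 0.40, limma adjusted p = 0.928), and its interval reached from -0.28 to 1.67. It was 0.34 without wildtype 1, 0.41 without diabetic 3 and 0.99 without diabetic 1. The other Tgfbr2 probe set, named for another RefSeq transcript, gave 4.96, 5.23 and 5.14 against 5.14, 5.26 and 5.20, a difference of 0.09. The mean of both was 0.39 higher.

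Its partner kinase Tgfbr1 differed by 0.16 and the heparan sulfate-bearing coreceptor Tgfbr3 by -0.07. The ligands were dim or near the array median. Tgfb1, the main fibrogenic ligand in liver, read 5.40, 5.23 and 5.38 in wildtype and 5.19, 5.20 and 5.56 in diabetic liver, a difference of -0.02 with an interval from -0.32 to 0.27. Tgfb3 gave 3.99, 3.89 and 3.95 against 4.0, 4.15 and 4.09, a difference of 0.13 whose groups were separated by 0.01. Tgfb2 differed by 0.03.

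BMP ligands were split evenly, with 5 of 10 higher and 5 lower, a median difference of -0.01 and 0 called (0 at an unadjusted p under 0.05). Bmp2, which liver endothelial cells make and which induces the iron hormone hepcidin, read 6.04, 6.30 and 6.64 in wildtype and 6.19, 5.86 and 6.86 in diabetic liver, a difference of -0.02 that was -0.30 without diabetic 3 and 0.20 without diabetic 2. Bmp6, the other ligand of that pathway, differed by -0.10. Bmp4 gave 5.13, 5.45 and 5.48 against 4.94, 5.40 and 5.15, a difference of -0.19. Bmp8a gave 4.92, 4.98 and 5.05 against 4.84, 4.86 and 4.66, a difference of -0.20 whose groups did not overlap (limma unadjusted p = 0.0633, adjusted p = 0.928). Its relative Bmp8b differed by 0.03.

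All 3 BMP receptors had higher means, by 0.09 to 0.19, with 0 called (0 at an unadjusted p under 0.05). Bmpr1a, the type I receptor that hepatocytes use for iron control, read 6.97, 6.76 and 6.69 in wildtype and 7.07, 6.92 and 7.03 in diabetic liver. Only wildtype 1 lay within the diabetic range, and the difference was 0.19 (SE 0.10, limma adjusted p = 0.928). Bmpr1b gave 3.48, 3.48 and 3.45 against 3.49, 3.53 and 3.64, and the type II receptor Bmpr2 gave 3.92, 3.80 and 3.66 against 3.92, 3.97 and 3.76. Bmp1, a protease that trims procollagen and no BMP ligand despite its name, gave 8.69, 9.07 and 8.49 against 8.76, 8.44 and 9.10, a difference of 0.01 with a wide interval, -0.50 to 0.52.

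Wnt ligands are lipid-bearing morphogens, and the whole measured family of 19 had small differences, from -0.21 to 0.20. Means were higher in diabetic liver for 14 and lower for 5, with a median of 0.05, and 0 were called (0 at an unadjusted p under 0.05). Of the 19, 14 lay below the median of all probe sets. Leaving out an array gave between 12 and 16 higher means and a median between 0.01 and 0.10. In the same fits, 48.6% to 55.4% of all probe sets had higher means. Wnt2 and Wnt9b, which endothelial cells of the central vein make to zone the lobule, differed by 0.05 and -0.15. Wnt2 read 4.62, 4.76 and 4.64 in wildtype and 4.69, 4.62 and 4.86 in diabetic liver, and Wnt9b read 5.08, 5.34 and 5.50 against 5.18, 5.26 and 5.05. The mean of 7 endothelial markers ran from 5.40 to 5.57 on the wildtype and from 5.24 to 5.61 on the diabetic arrays. Of these markers 3 had higher and 4 lower means in diabetic liver, with differences from -0.30 to 0.15. Cd34 and Sele, with means of 4.13 and 2.66, lay below the median of all probe sets. The part of the endothelial markers in these values was not tested.

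Wnt5a, a ligand that acts outside the beta-catenin branch, gave 4.27, 4.08 and 3.65 against 3.84, 3.76 and 3.75. The diabetic arrays lay between the wildtype arrays, and the difference of -0.21 was -0.08 without wildtype 1 and -0.39 without wildtype 3. Wnt10b, an inhibitor of fat cell formation, gave 4.64, 4.59 and 4.43 against 4.60, 4.79 and 4.87, the largest positive difference of the family at 0.20 (SE 0.10, limma adjusted p = 0.928). Wnt7a gave 4.72, 4.79 and 4.76 against 4.83, 4.84 and 4.87, and it was the Wnt whose groups did not overlap, by 0.04. Wnt4 and Wnt5b differed by 0.03 and -0.03, at 4.96, 4.75 and 5.01 against 4.99, 5.11 and 4.72 for Wnt4 and 6.41, 7.07 and 6.39 against 6.33, 6.59 and 6.85 for Wnt5b.

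Neighbouring members in the RefSeq gene order did not share a sign throughout. Wnt10b and its neighbour Wnt1 differed by 0.20 and 0.14, and Wnt3a and Wnt9a by 0.05 and 0.11. Wnt6 and Wnt10a differed by -0.03 and -0.15. Wnt9b and Wnt3 had opposite signs, at -0.15 and 0.03. The signs also alternated along Fgf3, Fgf4 and Fgf15, at -0.14, 0.09 and -0.04.

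VEGF ligands drive the growth of blood and lymph vessels. Vegfa, which hepatocytes make for the sinusoidal endothelium, read 8.84, 9.52 and 8.77 in wildtype and 8.35, 8.68 and 9.13 in diabetic liver. Wildtype 2 was the highest array and the groups overlapped. The difference was -0.32 (SE 0.27, 95% confidence interval -0.97 to 0.33, limma adjusted p = 0.928), and without wildtype 2 it was -0.08. Vegfb gave 8.23, 7.35 and 7.74 against 7.90, 8.0 and 7.66, a difference of 0.08. Vegfd, a lymphatic ligand, gave 4.64, 4.87 and 4.58 against 4.88, 4.70 and 5.08, a difference of 0.19 that was 0.09 without diabetic 3.

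PDGF receptors mark and drive stellate cells, the fat-storing cells that lay down collagen in fibrosis. Pdgfrb read 5.15, 5.60 and 6.03 in wildtype and 5.16, 5.30 and 5.17 in diabetic liver, so that the wildtype arrays were spread and the diabetic arrays close to the lowest of them. The difference of -0.38 (SE 0.21, limma adjusted p = 0.928) was -0.60 without wildtype 1 and -0.16 without wildtype 3. Pdgfra differed by -0.10, at 3.62, 3.60 and 3.85 against 3.44, 3.60 and 3.71. The mean of the 3 stellate markers outside the set, Dcn, Lum and Vcan, was 4.70, 4.37 and 4.88 on the wildtype and 4.42, 4.63 and 4.72 on the diabetic arrays, and their part in the result was not tested. Of these, Dcn was highest on wildtype 3, Lum on wildtype 1 and Vcan on diabetic 3. Lum and Vcan, with means of 3.33 and 2.94, lay below the median of all probe sets and were not separated from background. In whole liver, fewer cells of a type and less RNA per cell cannot be told apart.

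Among the PDGF ligands, which drive cells of the connective tissue lineage, Pdgfc was singled out after its values were seen. It was read by a probe set with a suffix of possible cross-hybridisation. Pdgfc gave 6.67, 5.46 and 6.03 in wildtype and 6.90, 5.73 and 6.22 in diabetic liver. The array numbered 1 was highest and that numbered 2 lowest in each group, and the diabetic array was higher by 0.24, 0.26 and 0.19 within the numbers. Without the block the difference of 0.23 had an SE of 0.39, and with the replicate block it had an SE of 0.07 (limma unadjusted p = 0.0307, adjusted p = 0.822). Pdgfa and Pdgfd differed by -0.08 and 0.13, at 6.64, 7.12 and 6.73 against 6.77, 6.83 and 6.64 for Pdgfa and 2.41, 2.31 and 2.40 against 2.63, 2.40 and 2.49 for Pdgfd.

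**Figure D3:**
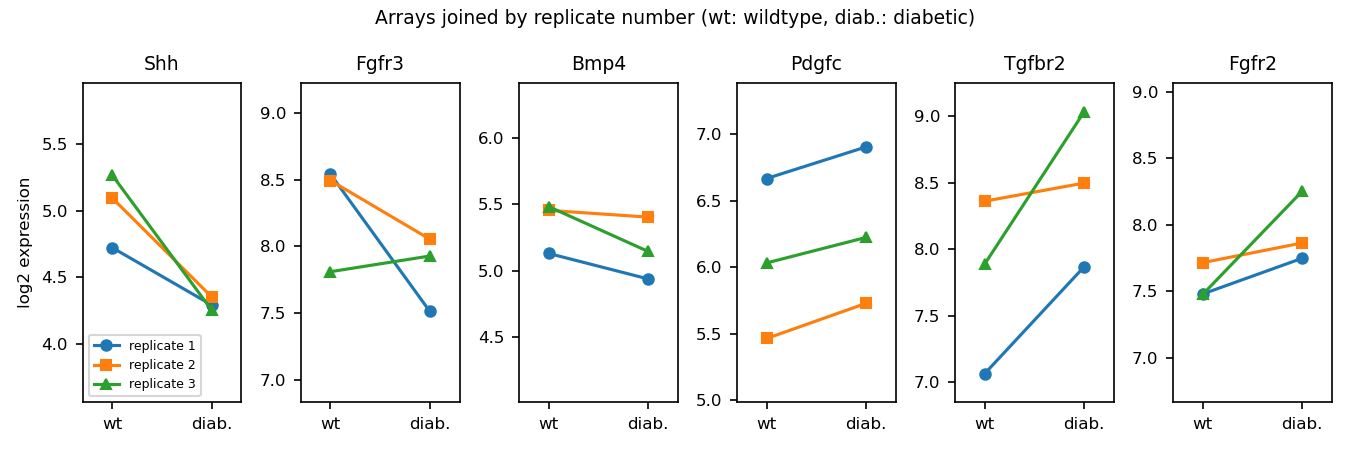
Log2 expression (y axis) of 6 genes on wildtype (wt) and diabetic (diab.) arrays, joined by replicate number; the panels span the same log2 range. In Pdgfc the lines are parallel, with the diabetic array higher by 0.24, 0.26 and 0.19, and in Fgfr3 the line of replicate 3 runs against the others.

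Over all 83 genes, the 3 same-numbered pairs had 1 direction for 20 genes that were higher and 9 that were lower, together 34.9%, against 25.8% of all probe sets. With the replicate block limma called 0 of the 83, and 3 had an unadjusted p under 0.05, or 3.61% against 4.33% of all probe sets. These were Shh (unadjusted p = 0.00476, adjusted p = 0.494), Tgfbr2 (0.0288 and 0.822) and Pdgfc. The block did not move the differences, since each number occurs once per group.

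Hgf, the mitogen that non-parenchymal cells release toward hepatocytes, gave 2.50, 2.37 and 2.47 in wildtype and 2.65, 2.67 and 2.58 in diabetic liver. Its groups did not overlap and the difference was 0.18 (SE 0.08, limma unadjusted p = 0.0505, adjusted p = 0.928), but the values lay near the array's lowest, 2.03. Its receptor Met, read by a probe set with such a suffix, gave 8.48, 8.85 and 8.58 against 8.76, 8.48 and 9.44. The high value of diabetic 3 made the difference of 0.26, which was -0.02 without it.

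Egfr, the hepatocyte receptor for EGF and its relatives, was read by a pair of bright probe sets named for different RefSeq transcripts. The one with the higher mean over all arrays gave 10.23, 10.96 and 10.75 in wildtype and 10.23, 10.39 and 11.07 in diabetic liver. The difference was -0.08. In wildtype this probe set had the lower mean, 10.65 against 10.79. The other gave 10.59, 11.37 and 10.41 against 9.83, 10.42 and 10.74, a difference of -0.46 whose interval ran from -1.23 to 0.31 (limma, adjusted p = 0.928). The groups overlapped at both. Hbegf, a heparin-binding ligand of Egfr, gave 4.52, 4.18 and 4.0 against 4.0, 4.13 and 4.17, and its difference of -0.13 was 0.01 without wildtype 1.

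The groups did not overlap for 11 of the 83 genes, or 13.3%, against 7.87% of all probe sets, with 7 higher in diabetic liver (8.43% against 4.57%) and 4 lower (4.82% against 3.29%). The higher ones were Fgfr2, Hgf, Fgf13, Tgfb3, Wnt7a, Fgf10 and Bmpr1b, and the lower ones Shh, Bmp8a, Fgf3 and Fgf12. The gap between the groups was 0.37 for Shh and 0.01 to 0.08 for the other 10, and 9 of the 11 lay below the median of all probe sets.

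**Figure D4:**
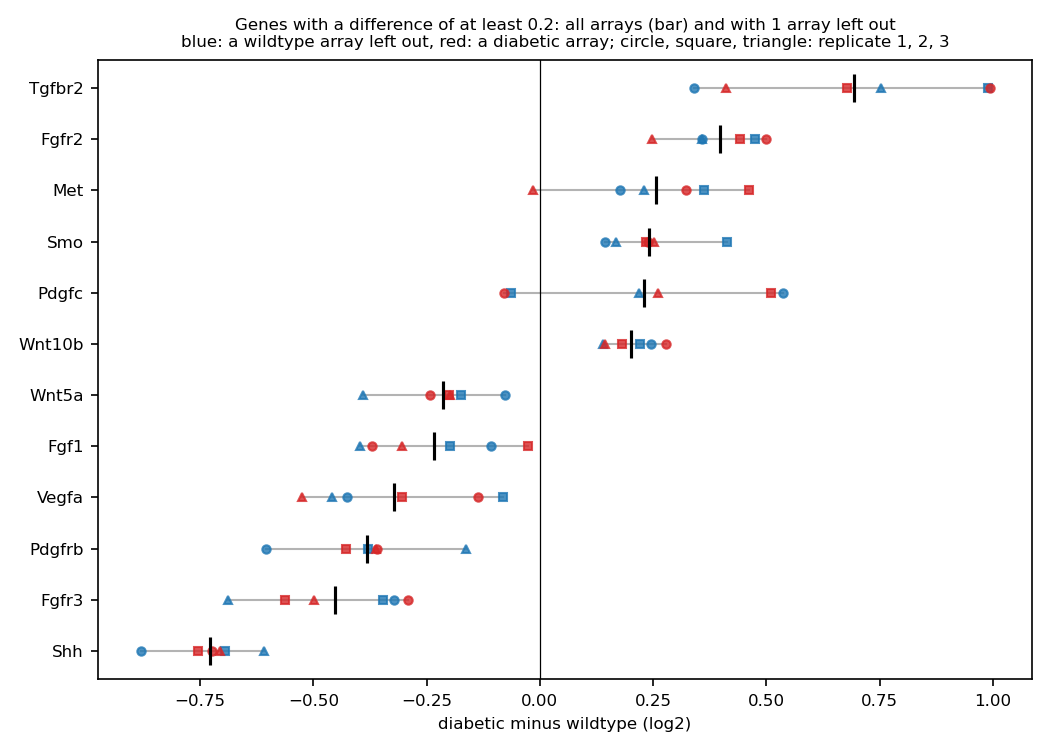
Difference between diabetic and wildtype liver (log2, x axis) for the 12 genes with a size of at least 0.2, with all arrays (black bar) and with each array left out in turn (symbols). Met and Pdgfc cross 0, reaching -0.02 and -0.08, and Shh stays between -0.88 and -0.61.

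The differences of 12 genes reached 0.2 in size, and dropping 1 array shifted 10 of these more than 1.5 times or turned their sign. The exceptions were Shh and Wnt10b. Met and Pdgfc changed sign, and Pdgfc gave -0.08 without diabetic 1 and 0.54 without wildtype 1. Of all 83 genes, 33 took the other sign in 1 or more of these 6 fits.

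Receptors and secreted ligands were set side by side as groups. Of 16 receptors, 10 had higher means, with a median difference of 0.07, and of 62 secreted ligands 36 had, with a median of 0.03. The receptors were 8 of 16 with a median of 0.02 without diabetic 3, where 48.6% of all probe sets had higher means. They were 12 of 16 with 0.10 without diabetic 1, where 53.8% of all probe sets had. Without diabetic 2 their median was 0.04. One receptor, Fgfr2, and one ligand, Shh, had an unadjusted p under 0.05, and 0 of either were called. Of the receptors 12 of 16 lay above the median of all probe sets, against 20 of the 62 ligands, so that the precision of the groups differed too.

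The wider pathways were covered by 31 measured genes of the 155 on a list of coreceptors, antagonists, transducers and targets. None passed limma's threshold, against 0.321% of all probe sets, and 0 had an unadjusted p under 0.05, or 1 with the replicate block, against 4.33% of all probe sets. Their median difference was -0.02, with 13 higher and 18 lower. The list of TGF-beta and BMP partners, which holds related ligands, activin receptors and antagonists, had 5 of 15 higher and 10 lower. Inhbe, a subunit of the liver hormone activin E, read 7.52, 8.23 and 8.01 in wildtype and 7.40, 7.49 and 7.59 in diabetic liver, a difference of -0.43 (SE 0.18, limma unadjusted p = 0.0565, adjusted p = 0.928). It was the gene counted with the replicate block (limma unadjusted p = 0.0359, adjusted p = 0.822). Gdf11 gave 6.02, 6.01 and 6.21 against 5.96, 5.84 and 5.87, a difference of -0.19.

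Of 9 Frizzled receptors for Wnts, 3 were higher and 6 lower. Fzd3 read 4.56, 5.46 and 5.55 in wildtype and 4.69, 4.64 and 4.66 in diabetic liver, where wildtype 1 lay with the diabetic arrays, and the difference was -0.53 (limma adjusted p = 0.928). Fzd4 gave 3.69, 3.61 and 3.32 against 3.65, 3.81 and 3.90, a difference of 0.24. In the EGF family the ligand Btc differed by 0.29 and the receptor Erbb3 by 0.22. The vessel-stabilising ligand Angpt1 and its antagonist Angpt2 differed by 0.15 and -0.02.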

How the data were processed

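The arrays, Affymetrix designs focused on glycan genes, took 1 liver RNA sample each, 3 wildtype and 3 diabetic, all from males. The authors deposited log2 expression values made with RMA, per the submitters' processing notes; how RMA was set up was not stated. Since RMA normalizes between arrays, a shift common to most probe sets cannot be seen. The medians of the deposited arrays still ran from 4.93, on wildtype 1, to 5.06, on wildtype 2. After a shift to a common median, 51 of the 83 genes had higher means in diabetic liver, against 52.6% of all probe sets. RefSeq accessions named 963 of 1246 probe sets, through a table of GRCm38.p6. Probe sets with an s or x suffix, which may cross-hybridise, stayed in and represent 17 of the 83 genes.

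The group difference was tested two-sided with limma 3.58.1 (lmFit, eBayes) in R 4.3.3, fitted and adjusted over all 1246 probe sets at a threshold of 0.05, with 4 residual and 2.44 prior degrees of freedom. The scripts were tested on simulated data. Values are log2, differences are diabetic minus wildtype, and arrays are named by group and replicate number, as in diabetic 3.

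Same-numbered arrays deviated together (correlations of 0.397, 0.138 and 0.162 over all probe sets), so a fit with the number as a block was run beside it; the labels do not say what a number stands for. Genes named with values were those with an unadjusted p under 0.05 in limma without the block, those whose groups did not overlap, the brightest and lowest-p member of each family group, and a fixed set of known liver genes; of the pathway list, those called and the lowest-p genes. Pdgfc, and members named only by their difference, were added after their values were seen. Genes and lists were chosen with earlier results of these data known.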

Additional observations from a re-analysis of the deposited data

How the results depend on the processing

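Of the 83 genes, 0 passed the adjusted threshold in each of the 15 alternatives (median shift, quantile normalization, no dimmer probe sets, trend and robust eBayes, ordinary linear model, array weights, replicate block, a threshold of 0.10, the mean of a gene's probe sets, and each array left out), and so did 0 of the 31 pathway genes. Over all probe sets the count of 4 called was 0 with the replicate block, with trend and robust eBayes and with the ordinary linear model, and 0 to 1 with an array left out. The count of the 83 genes at an unadjusted p under 0.05, 2 in the main fit, was 1 without the dimmer probe sets, which left 34 of the genes, 6 with the ordinary linear model, 3 with the replicate block, and 1 to 4 with an array left out. The 11 genes without overlap became 2 without the dimmer probe sets, and 16 to 25 with an array left out, where fewer arrays overlap less. Outside the main fit and the replicate block, the shares of all probe sets at an unadjusted p under 0.05 or without overlap were not counted. These counts in the other alternatives thus have no background beside them. The median difference of the pathway genes, -0.023, ran from -0.037 to 0.022 with an array left out. Its cause was not tested. The block changed no call among the 83 genes. Signal over background limits the 49 dim genes.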
